A study of Homo sapiens with 12 samples.

Results

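The joint action of TNFɑ and apigenin was examined in MDA-MB-231, an established triple-negative breast cancer cell line from a pleural effusion. The design crossed both agents on 12 whole-transcript arrays: untreated controls, TNFɑ at 40 ng/ml, apigenin at 40 µM, and both at these doses, with 3 arrays per group and 24 h of treatment. Per the labels' protocols the agents were prepared in a buffered salt solution (HBSS); the sources used here do not say whether the controls received that solution. The labels call the arrays of a group triplicates without saying whether each had its own culture, and the p-values then cover no more than the spread among these arrays, which may be technical. The question was how far the cells given both agents departed from the sum of the separate effects. Of 53617 probe sets in the deposited table, the 23871 that carried exactly 1 gene symbol were members, and 21895 of them passed a filter on low values and gave 20572 genes.

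TNFɑ is an inflammatory cytokine whose receptor activates the transcription factors NF-κB and AP-1, which in turn switch on cytokines, chemokines, adhesion molecules and their own inhibitors. Apigenin is a plant flavone known to inhibit several protein kinases and to interfere with NF-κB activity. If each agent multiplied the RNA of a gene by its own factor, the log2 value in cells given both would be the TNFɑ mean plus the apigenin mean minus the control mean; that sum is called here the additive expectation. The departure is the observed mean with both agents minus this expectation on the log2 scale, which equals the TNFɑ response in apigenin-treated cells minus the TNFɑ response in cells without apigenin. A negative departure means less RNA than expected, and a positive one more.

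Promoters are shown for 5 of the genes called for a departure, 3 with less RNA than expected (IL1A, CXCL8, CXCL11) and 2 with more (VIPR1, SAMD9L), because NF-κB and AP-1 act through short DNA motifs. RefSeq windows (GRCh38.p14) were found for 9 of the 11 called genes; each sequence is the 250 bases before the most upstream start, written 5′ to 3′ on the gene's strand, and capitals mark motif matches on either strand. C3 and MMP9 are named only.
IL1A, chr2:112784494-112784743, minus strand: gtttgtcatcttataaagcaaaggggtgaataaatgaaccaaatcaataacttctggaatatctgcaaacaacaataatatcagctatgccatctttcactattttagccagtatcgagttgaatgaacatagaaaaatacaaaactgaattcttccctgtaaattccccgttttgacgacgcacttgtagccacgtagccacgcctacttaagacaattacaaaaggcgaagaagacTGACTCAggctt
CXCL8, chr4:73740319-73740568, plus strand: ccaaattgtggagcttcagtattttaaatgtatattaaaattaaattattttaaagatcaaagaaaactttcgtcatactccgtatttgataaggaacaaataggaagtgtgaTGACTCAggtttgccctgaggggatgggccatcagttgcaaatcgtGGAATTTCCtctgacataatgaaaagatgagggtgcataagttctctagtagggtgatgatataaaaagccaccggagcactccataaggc
CXCL11, chr4:76036071-76036320, minus strand: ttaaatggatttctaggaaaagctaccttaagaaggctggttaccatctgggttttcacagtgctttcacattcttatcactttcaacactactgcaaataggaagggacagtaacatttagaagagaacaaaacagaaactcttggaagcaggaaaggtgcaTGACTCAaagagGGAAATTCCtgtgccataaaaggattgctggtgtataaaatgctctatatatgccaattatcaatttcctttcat
VIPR1, chr3:42489049-42489298, plus strand: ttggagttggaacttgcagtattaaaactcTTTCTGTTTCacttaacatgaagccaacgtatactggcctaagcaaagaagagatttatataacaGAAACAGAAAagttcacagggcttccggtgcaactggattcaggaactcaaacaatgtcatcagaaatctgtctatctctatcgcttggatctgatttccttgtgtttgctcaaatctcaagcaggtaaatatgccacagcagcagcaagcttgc
SAMD9L, chr7:93148386-93148635, minus strand: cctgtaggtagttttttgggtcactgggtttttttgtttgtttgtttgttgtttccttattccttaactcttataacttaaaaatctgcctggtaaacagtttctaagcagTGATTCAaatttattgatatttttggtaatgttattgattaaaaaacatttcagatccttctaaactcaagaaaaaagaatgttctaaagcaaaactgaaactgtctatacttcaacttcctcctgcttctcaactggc

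A κB-like core, GGNNNTTCC, began 91 bases before the start of CXCL8 and 75 bases before that of CXCL11, and 17.1% of the 35116 promoter windows of this length held that motif. The AP-1 motif TGANTCA, held by 6.6% of all windows, began 12 bases before the start of IL1A, 137 before CXCL8, 87 before CXCL11 and 139 before SAMD9L. TTTC, NN and TTTC in a row, as in interferon-response elements, was held by 3.0% of all windows and matched VIPR1 at 220 and 155 bases before the start and IL24, a gene below the expectation, at 83. Of the other windows not printed, CNTNAP1 held the κB-like core at 79 bases and LOC100287834 the AP-1 motif at 232, and CLDN1 held none of the 3. None of the matches of the 3 motifs overlapped another. A match describes these letters and is no evidence of binding.

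All levels are given on the log2 scale of the deposited table, with 1 probe set per gene. Array medians over the whole table ran from 2.091 to 2.159, and for a gene near this level a difference may understate the change in RNA. Of 14 basal and mesenchymal markers of the line, SPARC (mean 2.58), TGFBI (4.11) and S100A4 (4.73) were the lowest, and the others had means from 5.76 (ZEB1) to 10.03 (AXL), with VIM at 8.11. The 18 luminal markers had means from 1.58 (PGR) to 5.53 (XBP1): ESR1 was at 2.09 and CDH1 at 1.95, whereas GATA3 (4.17), EPCAM (4.93) and KRT19 (5.11), among others, lay above the array medians. Leukocyte markers lay between 1.54 and 2.97 in their means, except CD68 at 9.71, and 0 of 14 departed from additivity at an unadjusted p under 0.05. Of 10 fibroblast and endothelial markers 2 did so, KDR at -0.996 and ACTA2 at 0.68, beside 4.23% of all genes. The median within-group standard deviation of a gene was 0.178 in control, 0.166 with TNFɑ, 0.158 with apigenin and 0.146 with both. The 4 arrays numbered 3 were also left out together, and counts without them stand beside the main lists.

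Few genes departed from the additive expectation beyond the spread between arrays; IL1A, C3 and CXCL8 had the smallest p-values, and in each TNFɑ raised the gene less in the presence of apigenin. Of 20572 genes, 11 (0.0535%) departed from additivity at an adjusted p under 0.05 in limma's moderated test with Benjamini-Hochberg adjustment. In 9 genes (0.0437%) the cells given both agents had less RNA than expected, and in 2 (0.00972%) they had more. At an unadjusted p under 0.05 there were 870 genes (4.23%), 462 higher and 408 lower. The departures of all genes had a median of 0.008, a 5th percentile of -0.38 and a 95th percentile of 0.38.

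Large departures were rare in either direction, but the longer tail was downward. A departure of at least 1, a factor of 2 in RNA, was estimated for 45 genes (0.219%), of which 30 (0.146%) were lower and 15 (0.0729%) higher than expected. The extremes were -3.57 for IL1A and 1.60 for SLC2A12, a glucose transporter. In 4 of the 15 higher genes, SLC2A12 among them, the additive expectation fell below 1.60, the lowest 25th percentile of any array, a level at which the expectation itself could hardly be measured. The expectation fell there in none of the 30 lower genes. That check does not cover low levels in control or apigenin cells, where a loss under apigenin alone could hardly be measured. IL1A, for example, had means of 1.87 in control and 1.71 with apigenin, and C3 of 2.37 and 2.50, beside a lowest array median of 2.091. For 18721 genes (91.0%) the 95% interval of the departure lay inside -1 to 1, and the median width of an interval on either side of its estimate was 0.46. The remaining genes either had intervals too wide or too far from 0 to be bounded in this way. They include 5 called genes whose interval lay wholly beyond 1 in size, IL1A and C3 among them.

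**Figure D1:**
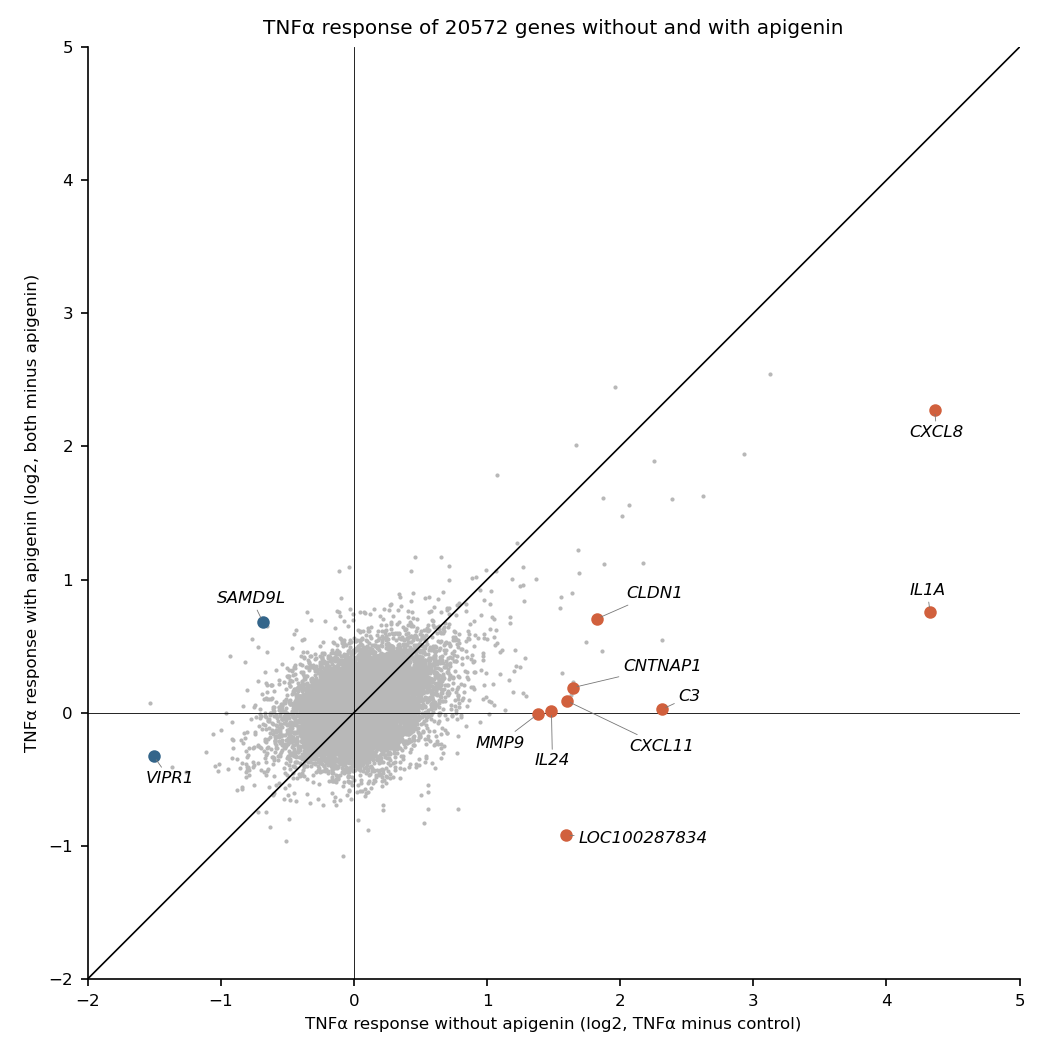
TNFɑ response of 20572 genes in log2 units, without apigenin on the horizontal axis and with apigenin on the vertical axis; the diagonal marks additivity and the coloured points are called genes (orange lower, blue higher than expected). IL1A and CXCL8 both sit beyond 4 on the horizontal axis but at 0.76 and 2.27 on the vertical one, and C3, CXCL11, MMP9 and IL24 sit near 0 on the vertical axis.

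The largest departure was that of IL1A, which encodes interleukin-1α, a cytokine that itself activates NF-κB in neighbouring cells. Its log2 values were 1.80, 1.84 and 1.98 in control, 6.27, 6.07 and 6.25 with TNFɑ, 1.78, 1.41 and 1.93 with apigenin, and 2.37, 2.30 and 2.73 with both. The TNFɑ arrays stood alone at the top, and the arrays with both agents lay above all 6 arrays without TNFɑ but far below TNFɑ alone. The TNFɑ response was 20.1-fold without apigenin and 1.69-fold with it. Cells given both agents had an expected value of 6.03 and an observed mean of 2.47, a departure of -3.57 ± 0.21 (SE; 95% interval -4.03 to -3.10; limma adjusted p = 4.675e-06), or 11.8-fold less RNA than expected. All 3 arrays with both agents lay below the expectation, and the estimated change of IL1A with apigenin on its own was -0.16 (limma adjusted p = 0.6048). From a control mean of 1.87 a loss could hardly be measured.

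C3, the central component of complement and an acute-phase protein, followed with the second smallest p-value. Its values were 2.22, 2.54 and 2.37 in control, 4.64, 4.46 and 4.95 with TNFɑ, 2.45, 2.44 and 2.62 with apigenin, and 2.47, 2.50 and 2.62 with both. Only the TNFɑ arrays stood apart, and the arrays with both agents lay within the range of apigenin alone. The response fell from 4.97-fold to 1.02-fold, a departure of -2.29 ± 0.20 (95% interval -2.71 to -1.87; adjusted p = 0.0002003). IL1A and C3 remained called in each of the 12 fits that left out 1 array, and they were the 2 genes called without the 4 arrays numbered 3.

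CXCL8, the neutrophil-attracting chemokine interleukin-8, kept a sizeable TNFɑ response under apigenin. It read 3.17, 2.98 and 3.65 in control, 7.55, 7.58 and 7.75 with TNFɑ, 4.48, 3.72 and 4.22 with apigenin, and 6.41, 6.32 and 6.51 with both. No group overlapped another: apigenin alone lay above control by 0.88 (adjusted p = 0.009488), and both agents lay between apigenin and TNFɑ. The TNFɑ response was 20.6-fold without apigenin and 4.83-fold with it (adjusted p = 5.103e-05), and the departure was -2.09 ± 0.28 (95% interval -2.68 to -1.50; adjusted p = 0.02184). Because apigenin by itself raised CXCL8, the additive expectation of 8.50 lay above the TNFɑ level, although the observed mean was 6.41.

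CXCL11, an interferon- and NF-κB-inducible chemokine for activated T cells, read 3.06, 2.82 and 2.54 in control, 4.50, 4.36 and 4.37 with TNFɑ, 2.22, 2.54 and 2.70 with apigenin, and 2.56, 2.47 and 2.71 with both. The arrays with both agents overlapped control and apigenin and lay well below TNFɑ alone. Its departure was -1.51 ± 0.22 (95% interval -1.98 to -1.04; adjusted p = 0.03422), with a TNFɑ response of 3.03-fold without and 1.06-fold with apigenin.

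IL24, a cytokine of the interleukin-10 family, was also called lower with apigenin alone, unlike these genes. Lower control means in IL1A, C3 and CXCL11 (1.87, 2.37 and 2.81) may have understated such a loss there. IL24 had a control mean of 3.85. Its values were 3.64, 3.80 and 4.10 in control, 5.71, 5.14 and 5.15 with TNFɑ, 2.79, 2.68 and 2.91 with apigenin, and 2.87, 2.67 and 2.87 with both. The last 2 groups overlapped and lay below all control arrays. Cells given both agents fell short of the expectation by 1.47 on the log2 scale, at a departure of -1.47 ± 0.23 (95% interval -1.98 to -0.97; adjusted p = 0.04886), the TNFɑ response being 2.80-fold without apigenin and 1.01-fold with it.

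MMP9, a secreted protease that degrades basement membrane collagen, read 2.37, 2.38 and 2.25 in control, 3.51, 3.57 and 4.06 with TNFɑ, 2.50, 2.66 and 2.52 with apigenin, and 2.56, 2.63 and 2.45 with both. All TNFɑ arrays exceeded the other 9, and the arrays with both agents overlapped apigenin alone. The departure was -1.39 ± 0.20 (95% interval -1.82 to -0.96; adjusted p = 0.03422).

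CLDN1, a claudin of the tight junction, rose with TNFɑ in either setting but less with apigenin. Its values were 3.19, 3.04 and 3.29 in control, 4.78, 5.05 and 5.17 with TNFɑ, 3.05, 3.06 and 2.96 with apigenin, and 3.69, 3.69 and 3.81 with both. The arrays with both agents lay between TNFɑ and the 6 arrays without TNFɑ. The response was 3.54-fold without apigenin and 1.63-fold with it (adjusted p = 0.03581), a departure of -1.12 ± 0.17 (95% interval -1.49 to -0.74; adjusted p = 0.04712).

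CNTNAP1, a contactin-associated membrane protein, read 3.14, 3.19 and 3.80 in control, 5.10, 5.01 and 4.96 with TNFɑ, 3.67, 3.33 and 3.60 with apigenin, and 3.71, 3.63 and 3.83 with both. TNFɑ alone stood above the other 3 groups, which overlapped, and the departure was -1.46 ± 0.23 (95% interval -1.96 to -0.96; adjusted p = 0.04886). The ninth lower gene, the provisional locus LOC100287834, had a departure of -2.51 ± 0.38 (adjusted p = 0.04628), with a TNFɑ response of 1.59 on the log2 scale without apigenin and of -0.92 (adjusted p = 0.4002) with it.

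Of the 2 genes above the expectation, VIPR1, a receptor for vasoactive intestinal peptide, was lowered by either agent to nearly the same level. Its values were 6.23, 6.20 and 6.42 in control, 4.71, 4.80 and 4.84 with TNFɑ, 4.95, 4.56 and 4.92 with apigenin, and 4.41, 4.49 and 4.56 with both. The treated groups lay close together and all below control. TNFɑ lowered VIPR1 2.83-fold and apigenin 2.78-fold, so additivity put the combination at 3.31; it was observed at 4.48, a departure of 1.18 ± 0.18 (95% interval 0.79 to 1.56; adjusted p = 0.04628).

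SAMD9L, an interferon-inducible antiviral factor, had estimated TNFɑ responses of opposite sign in the 2 settings. It read 6.30, 6.02 and 6.50 in control, 5.41, 5.67 and 5.68 with TNFɑ, 4.14, 4.39 and 4.63 with apigenin, and 5.11, 4.96 and 5.14 with both. The 4 groups did not overlap, and the arrays with both agents stood above apigenin alone. The TNFɑ difference was -0.68 (adjusted p = 0.05774) without apigenin and 0.68 (adjusted p = 0.1543) with it, and neither passed the threshold; their difference, the departure, was 1.37 ± 0.22 (95% interval 0.90 to 1.84; adjusted p = 0.04886).

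**Figure D2:**
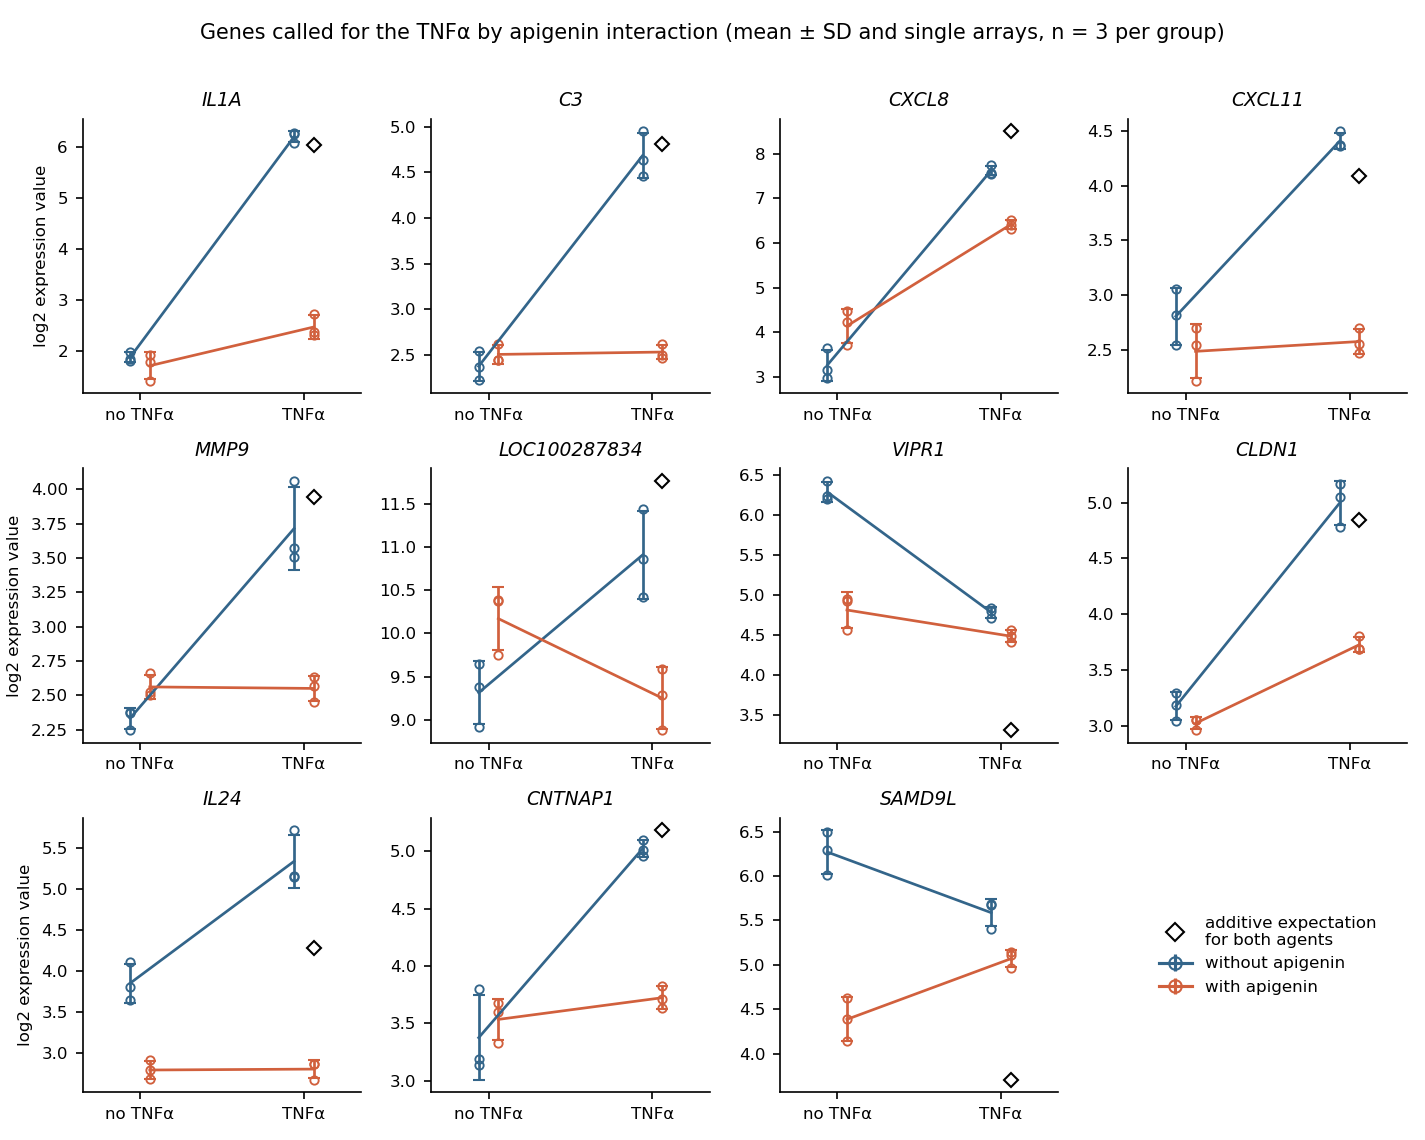
Log2 expression values of the 11 called genes without and with TNFɑ (horizontal axis) in cells without apigenin (blue) and with it (orange); circles are single arrays, lines join means, bars are SD (n = 3), and the diamond marks the additive expectation for both agents. In the 9 genes below expectation every array with both agents lies under the diamond, and in VIPR1 and SAMD9L every one lies above it.

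The 9 calls other than IL1A and C3 were lost in most or all of the 12 fits without 1 array. Each gene kept its sign in all 12 fits, but CXCL8 stayed called in 3 of them, CXCL11 and MMP9 in 2, CLDN1, CNTNAP1, IL24 and LOC100287834 in 1, and VIPR1 and SAMD9L in 0. In these fits the estimates ran from 1.05 to 1.25 for VIPR1, from 1.243 to 1.495 for SAMD9L and from -2.76 to -2.25 for LOC100287834. A fit without 1 array also has less precision. The number of called genes was 3, 2 and 6 without control array 1, 2 or 3; 4, 3 and 3 without the TNFɑ arrays; 4, 3 and 3 without the apigenin arrays; and 2, 2 and 2 without the arrays with both. With the level of small nucleolar RNAs of each array as a covariate (array medians of 4.75 to 6.34 over the list), 5 genes stayed called: IL1A, C3, CXCL8, MMP9 and LOC100287834. The part of that RNA class in the other calls was not tested.

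The 4 genes next to the threshold had estimates below 0. CTSS, a lysosomal cysteine protease of antigen processing, had the smallest p-value outside the called genes and read 5.85, 5.74 and 6.59 in control, 8.22, 8.38 and 8.52 with TNFɑ, 6.03, 5.58 and 6.26 with apigenin, and 6.37, 6.41 and 6.74 with both. TNFɑ alone stood apart and the other groups overlapped in part; the departure was -1.76 (95% interval -2.43 to -1.09; adjusted p = 0.1171). It was followed by CCL2, a monocyte chemokine, at -1.11 (adjusted p = 0.1306), IL32, a proinflammatory cytokine, at -1.26 (adjusted p = 0.1306), and ICAM1, the leukocyte adhesion receptor, at -0.996 (adjusted p = 0.1736). CTSS passed the threshold without control array 3 (adjusted p = 0.01263).

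Among 17 measured interleukins and related cytokines, 2 (IL1A, IL24) were called lower and 0 higher, beside 0.0437% and 0.00972% of all genes. At an unadjusted p under 0.05, 5 were lower and 0 higher (beside 1.98% and 2.25% of all genes), and 13 of 17 departures were below 0, as were 9964 of all 20572. Without the 4 arrays numbered 3 these counts were 5, 0 and 12. The list's median TNFɑ response was 0.40 without apigenin and 0.15 with it, beside 0.02 and 0.03 over all genes. IL1B, the second interleukin-1 agonist, had a departure of -1.50 (95% interval -2.63 to -0.37; adjusted p = 0.9994), and its TNFɑ arrays were uneven at 4.80, 3.03 and 2.77. IL6, an acute-phase cytokine, read 3.97, 4.65 and 5.54 with TNFɑ and 3.17, 3.02 and 3.65 with both, a departure of -1.21 (95% interval -2.10 to -0.32; adjusted p = 0.9994). For either gene the spread among the TNFɑ arrays was wide beside the departure. IRAK3, a decoy kinase that restrains interleukin-1 receptor signalling, was at -1.03 (95% interval -1.66 to -0.41).

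The estimates of 22 chemokines ranged from -2.09 to 0.28, with 8 above 0, as were 10608 of all 20572. CXCL8 and CXCL11 were called lower and 0 higher (beside 0.0437% and 0.00972% of all genes), 6 were lower and 0 higher at an unadjusted p under 0.05 (beside 1.98% and 2.25%; 5 and 0 without the arrays numbered 3), and the median departure was -0.17. CXCL10, which shares its receptor with CXCL11, read 2.74, 3.19 and 3.72 with TNFɑ and 1.61, 1.95 and 1.89 with both, beside 1.26 to 1.79 in control, a departure of -1.41 (95% interval -2.05 to -0.78; adjusted p = 0.3131). By contrast CXCL1, a neutrophil chemokine like CXCL8, read 4.32, 4.46 and 5.15 with TNFɑ and 4.01, 4.06 and 4.35 with both, and the TNFɑ response of 1.27 without apigenin stood beside 1.09 with it. Its departure was -0.18 with an interval of -0.83 to 0.47, so a departure of the size estimated for CXCL8 lay outside the interval. CXCL2 had an estimate of -0.00 and a wider interval of -0.92 to 0.91, and CCL20, a chemokine for immature dendritic cells, one of 0.16 (-0.36 to 0.69).

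Many NF-κB subunits and feedback regulators still rose with TNFɑ in the presence of apigenin: 11 of 36 measured members were called upward with it and 17 without it, beside 0.209% and 0.778% of all genes. In the departure 0 were called by limma; 5 were lower and 0 higher at an unadjusted p under 0.05 (4 and 1 without the arrays numbered 3), beside 1.98% and 2.25% of all genes. The median departure was -0.115. It was -0.192 without control array 3, -0.177 without TNFɑ array 2 and -0.176 without array 3 of both agents, but -0.076 without TNFɑ array 1, -0.050 without control array 2 and -0.036 without apigenin array 3. The median TNFɑ response was 0.57 without and 0.40 with apigenin. TNFAIP3, the deubiquitinase A20 that ends NF-κB signalling, read 6.76, 6.38 and 6.76 with TNFɑ and 5.80, 5.81 and 5.96 with both, beside 3.33 to 3.67 in control. TNFɑ raised it 8.72-fold without apigenin and 5.83-fold with it (adjusted p = 2.69e-06), and its departure of -0.58 (95% interval -1.03 to -0.13) was not called (adjusted p = 0.9994). NFKBIA, which encodes the inhibitor IκBα, was at -0.64 (-1.08 to -0.20), and TNIP3, a partner of A20, at -0.95 (-1.45 to -0.45).

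The subunit RELB read 4.76, 4.30 and 4.54 with TNFɑ and 4.34, 4.38 and 4.33 with both, which overlapped, and its departure of -0.13 had an interval of -0.55 to 0.29. NFKB2, the precursor of the partner subunit p52, was at -0.46 (-1.30 to 0.38). TRAF1, an adaptor of TNF receptors, read 5.26, 4.98 and 4.97 with TNFɑ and 5.45, 5.06 and 5.38 with both, and its estimate was positive at 0.49 (-0.13 to 1.11). IKBKE, a kinase of the NF-κB and interferon pathways, read 6.58, 6.60 and 6.53 with TNFɑ and 4.27, 4.06 and 4.51 with both, but one apigenin array was low (2.33 beside 3.60 and 3.54); the departure was -1.05 (-1.89 to -0.21; adjusted p = 0.9994). TNFRSF9, the costimulatory receptor 4-1BB, rose 1.94 on the log2 scale with TNFɑ under apigenin (adjusted p = 4.08e-05) and 2.93 without, and its departure was -0.99 (-1.46 to -0.51; adjusted p = 0.395).

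**Figure D3:**
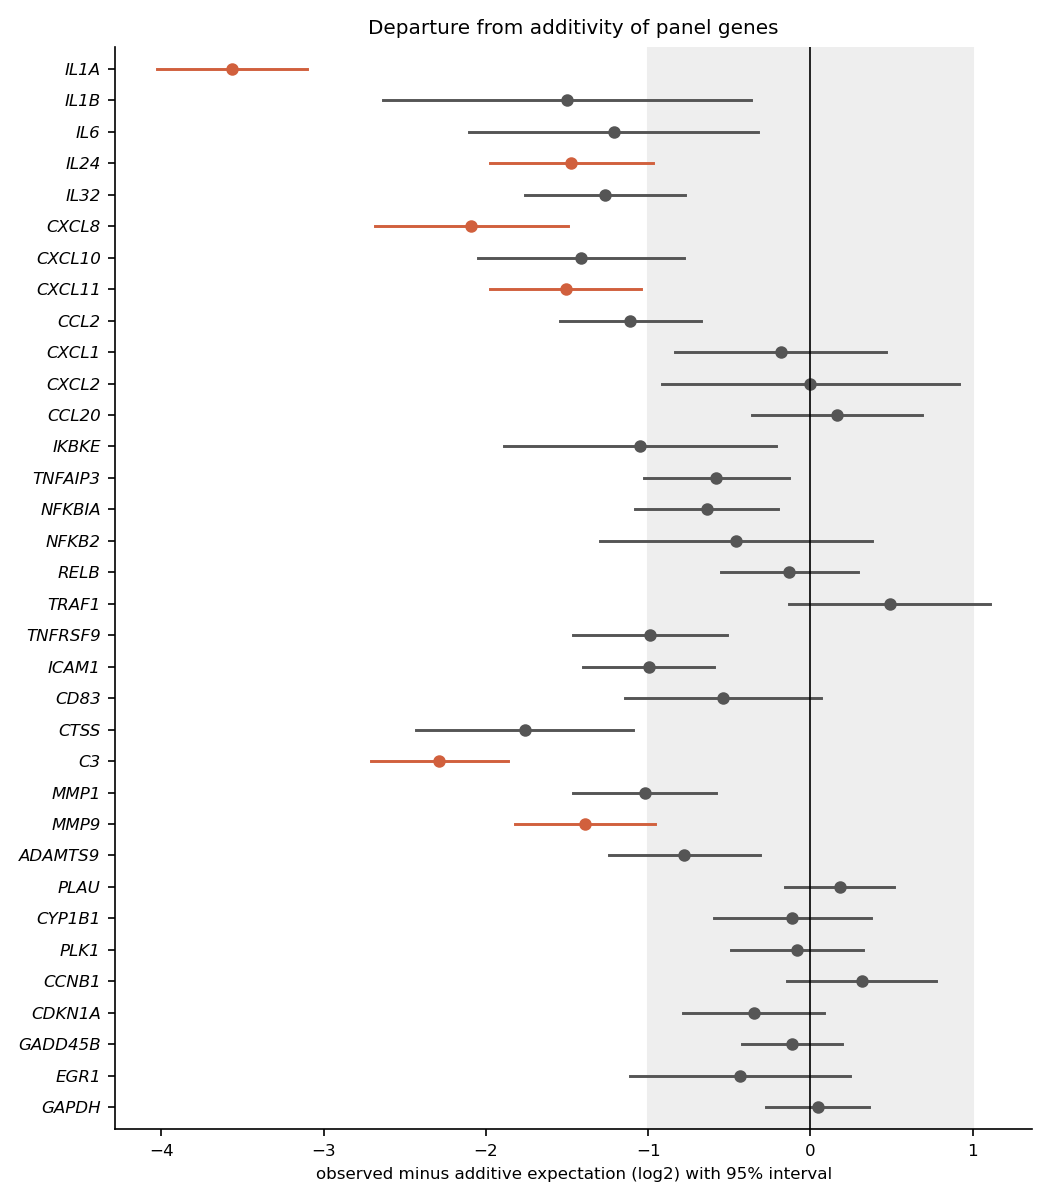
Departure from the additive expectation in log2 units (horizontal axis) for 34 panel genes, with 95% intervals from the limma fit; called genes are orange, and the grey band spans -1 to 1. IL1A, C3, CXCL8, CXCL11 and the uncalled CTSS lie wholly beyond -1, while RELB, CXCL1, PLK1 and GAPDH, among others, have intervals inside the band that include 0.

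Adhesion, complement and protease genes also held members below the expectation. Of 29 adhesion and antigen-presentation genes 0 were called by limma and 4 were lower at an unadjusted p under 0.05 (also 4 without the arrays numbered 3), beside 1.98% of all genes. ICAM1 read 9.33, 9.56 and 9.27 with TNFɑ and 8.89, 8.99 and 8.85 with both, beside 6.59 to 6.94 in control, so that it rose in either setting (3.09-fold with apigenin, adjusted p = 4.08e-05) by less than the 6.17-fold of TNFɑ alone. Besides C3, the 13 complement and acute-phase genes included SAA1, an acute-phase apolipoprotein, at -0.87 (adjusted p = 0.4702), and CFB, a factor of the alternative complement pathway, at -0.74 (adjusted p = 0.8811). Below 0 were 10 of the 13 estimates, as were 9964 of all 20572. Among 38 matrix proteases and invasion genes 1 (MMP9) was called lower, beside 0.0437% of all genes, and 5 were lower at an unadjusted p under 0.05 (7 without the arrays numbered 3), beside 1.98%.

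MMP1, an interstitial collagenase, read 8.47, 8.54 and 8.71 in control, 9.54, 9.75 and 9.46 with TNFɑ, 8.07, 7.55 and 7.74 with apigenin, and 7.66, 7.89 and 7.79 with both. The last 2 groups overlapped below control, and the departure was -1.02 (95% interval -1.46 to -0.58; adjusted p = 0.2693). ADAMTS9, a proteoglycan-cleaving protease, rose 2.39 with TNFɑ and 1.61 in the presence of apigenin (adjusted p = 0.000148), a departure of -0.78 (-1.24 to -0.31). PLAU, the urokinase, lay inside the band of additivity at 0.18 (-0.16 to 0.52), although apigenin lowered it 2.97-fold.

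AP-1 and immediate early genes, whose median apigenin response without TNFɑ was 0.60, had a median departure of -0.25 over 23 measured genes, which was -0.115 without apigenin array 3, -0.154 without TNFɑ array 3 and -0.116 without the arrays numbered 3. Of the 23 estimates 18 were below 0 (14 without the arrays numbered 3), as were 9964 of all 20572. In this list 0 were called by limma. At an unadjusted p under 0.05, 2 were lower and 0 higher, beside 1.98% and 2.25% of all genes. JUNB, an AP-1 subunit, read 4.84, 4.51 and 4.65 in control, 5.66, 5.50 and 5.55 with TNFɑ, 6.68, 6.56 and 6.54 with apigenin, and 6.88, 6.81 and 6.64 with both. Apigenin and both agents overlapped at the top, and the departure was -0.73 (95% interval -1.09 to -0.36; adjusted p = 0.4702). IER3, an early response gene of survival signalling, was at -0.66 (adjusted p = 0.395), while EGR1, a zinc-finger early response factor that apigenin raised 4.75-fold, was at -0.43 with an interval of -1.11 to 0.24.

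Among interferon-stimulated genes the estimates with the smallest p-values were positive. Of 50 measured, SAMD9L was called higher, beside 0.00972% of all genes, and 8 were higher and 0 lower at an unadjusted p under 0.05 (beside 2.25% and 1.98%; 7 and 1 without the arrays numbered 3). The median departure of 0.081 moved with single arrays. It was 0.003 without TNFɑ array 2, 0.038 without control array 1, 0.043 without array 2 of both agents and 0.047 without apigenin array 1, but 0.127 without control array 2, 0.135 without TNFɑ array 3 and 0.136 without apigenin array 3. GBP1, an interferon-induced GTPase, read 2.85, 2.64 and 3.30 in control, 2.57, 2.88 and 3.01 with TNFɑ, 2.22, 1.91 and 2.58 with apigenin, and 3.22, 3.29 and 3.40 with both. The TNFɑ difference was -0.11 without apigenin (adjusted p = 0.8928), and TNFɑ raised GBP1 by 1.07 with apigenin (adjusted p = 0.0421), but the departure of 1.18 (95% interval 0.60 to 1.77) missed the threshold (adjusted p = 0.4702). SAMD9, the neighbour and paralogue of SAMD9L, was at 0.73 (adjusted p = 0.5501), and PARP14, an ADP-ribosyltransferase of the interferon response, at 0.71 (adjusted p = 0.9994). IRF1, a transcription factor upstream of many such genes, was at 0.32 (-0.09 to 0.73).

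Mitotic genes mostly lay slightly above the additive expectation. Of 54 G2/M genes 44 lay above the additive expectation, as did 10608 of all 20572, 15 were higher and 1 lower at an unadjusted p under 0.05 (beside 2.25% and 1.98%), 0 were called by limma, and the median departure was 0.19 beside 0.008 for all genes. The array medians over the list were 7.48, 7.47 and 7.48 in control, 7.23, 7.12 and 7.29 with TNFɑ, 6.25, 6.32 and 6.40 with apigenin, and 6.33, 6.28 and 6.47 with both. TNFɑ arrays thus lay below control without apigenin, whereas the 2 apigenin groups overlapped. CENPE, a kinetochore motor, read 7.45, 7.65 and 7.28 with TNFɑ against 7.98 to 8.16 in control, and 6.44, 6.41 and 6.27 with both against 6.17 to 6.24 with apigenin; its departure was 0.76 (95% interval 0.40 to 1.12; adjusted p = 0.395).

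The mitotic count rested on several arrays. It was 8 higher without control array 3 or without array 1 of both agents, 9 without TNFɑ array 1, 10 without TNFɑ array 2 or array 3 of both agents, and 8 without the 4 arrays numbered 3, while the number above 0 stayed between 38 and 46. KIF18A, a kinesin that aligns chromosomes, was at 0.59 (0.16 to 1.03), CDC25C, a phosphatase that opens mitosis, at 0.61 (0.07 to 1.16), and SPC25, a kinetochore subunit, at 0.58 (0.06 to 1.11). PLK1, a mitotic kinase that apigenin lowered 4.40-fold, had an estimate of -0.09 and an interval of -0.49 to 0.32. Over 53 genes of DNA replication and G1/S the median departure was -0.02. Of these, 1 was higher and 0 lower at an unadjusted p under 0.05, beside 2.25% and 1.98% of all genes.

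**Figure D4:**
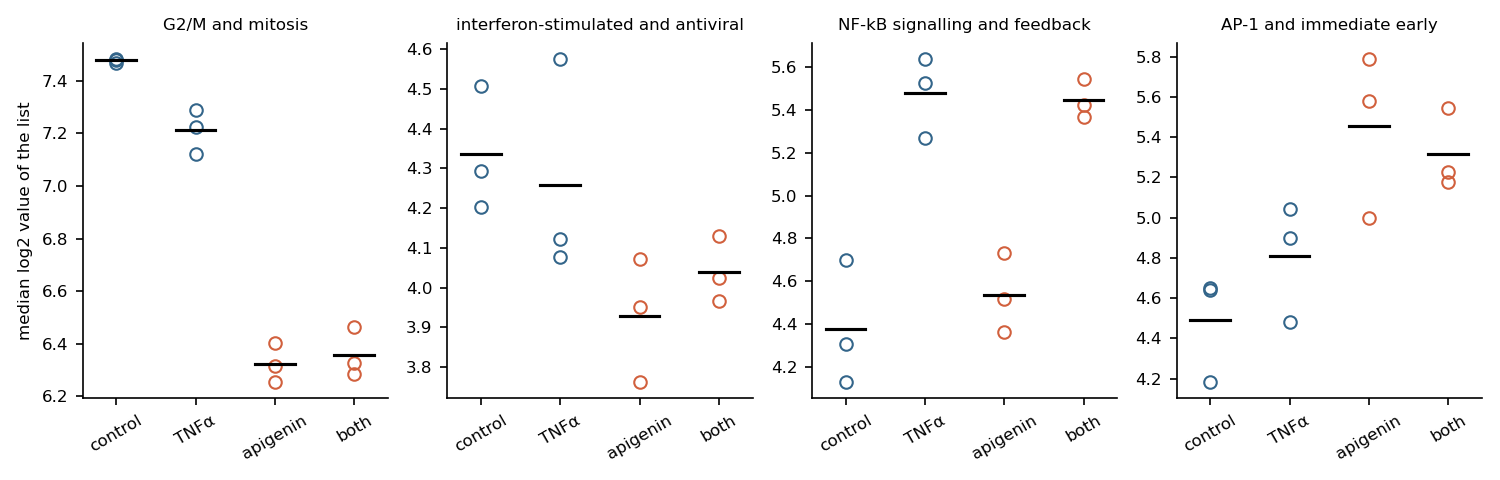
Median log2 value of 4 gene lists on each array (circles) and its mean per group (bars) in control, TNFɑ, apigenin and both; each panel has its own vertical axis, which does not start at 0. G2/M genes show a TNFɑ step below control without apigenin and overlapping arrays with apigenin, whereas the NF-κB list steps up with TNFɑ in either setting.

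Of the 1748 genes raised and 2400 lowered by apigenin on average over cells without and with TNFɑ (8.50% and 11.7% of all genes), 1566 and 2166 had an interval of the departure inside -1 to 1, beside 91.0% of all genes. The 2400 lowered genes also held 9 of the 11 called departures, 7 lower and 2 higher, beside 0.0437% and 0.00972% of all genes. That overlap follows in part from the grouping, because a smaller TNFɑ response under apigenin also lowers this average. Of the 7 lower genes only IL24 was called for apigenin alone (-1.06, limma adjusted p = 0.00103). For the others apigenin alone gave estimates from -0.32 (CXCL11) to 0.23 (MMP9). Their control means ran from 1.87 (IL1A) to 3.38 (CNTNAP1), beside 3.85 for IL24. At the low end of that range a loss could hardly be measured. The 2 higher genes, VIPR1 and SAMD9L, were both called lower with apigenin alone. CYP1B1, a cytochrome P450 regulated by the aryl hydrocarbon receptor, read 6.91, 7.08 and 7.20 in control, 6.93, 6.90 and 6.89 with TNFɑ, 4.71, 4.52 and 4.78 with apigenin, and 3.995, 4.62 and 4.60 with both. The TNFɑ differences were -0.15 without and -0.27 with apigenin, and the departure was -0.11 (95% interval -0.60 to 0.38). GADD45B, a stress-inducible growth-arrest gene, read 7.16, 7.10 and 7.13 in control and 9.13, 9.16 and 9.17 with both, against 9.37, 9.24 and 9.34 with apigenin, a departure of -0.11 (-0.42 to 0.19). Median departures of the stress lists were -0.08 over 23 genes of the unfolded protein response, -0.09 over 32 of the integrated stress response and -0.00 over 20 antioxidant targets of NRF2. Over the fits without 1 array they ran from -0.226 (without array 3 of both agents) to -0.035 (without control array 1) for the first list, from -0.183 (without control array 3) to -0.070 (without apigenin array 3) for the second, and from -0.071 (without apigenin array 2) to 0.080 (without apigenin array 3) for the third. ERN1, the sensor kinase IRE1α of the unfolded protein response, was at -0.76 (-1.37 to -0.15; adjusted p = 0.9994), and GADD45G at -0.77 (-1.32 to -0.21; adjusted p = 0.9994). Glycolysis and hypoxia genes (30) and cytosolic ribosomal proteins (45) had 0 members with an unadjusted p under 0.05, beside 4.23% of all genes. GAPDH was at 0.04 (-0.27 to 0.36).

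**Figure D5:**
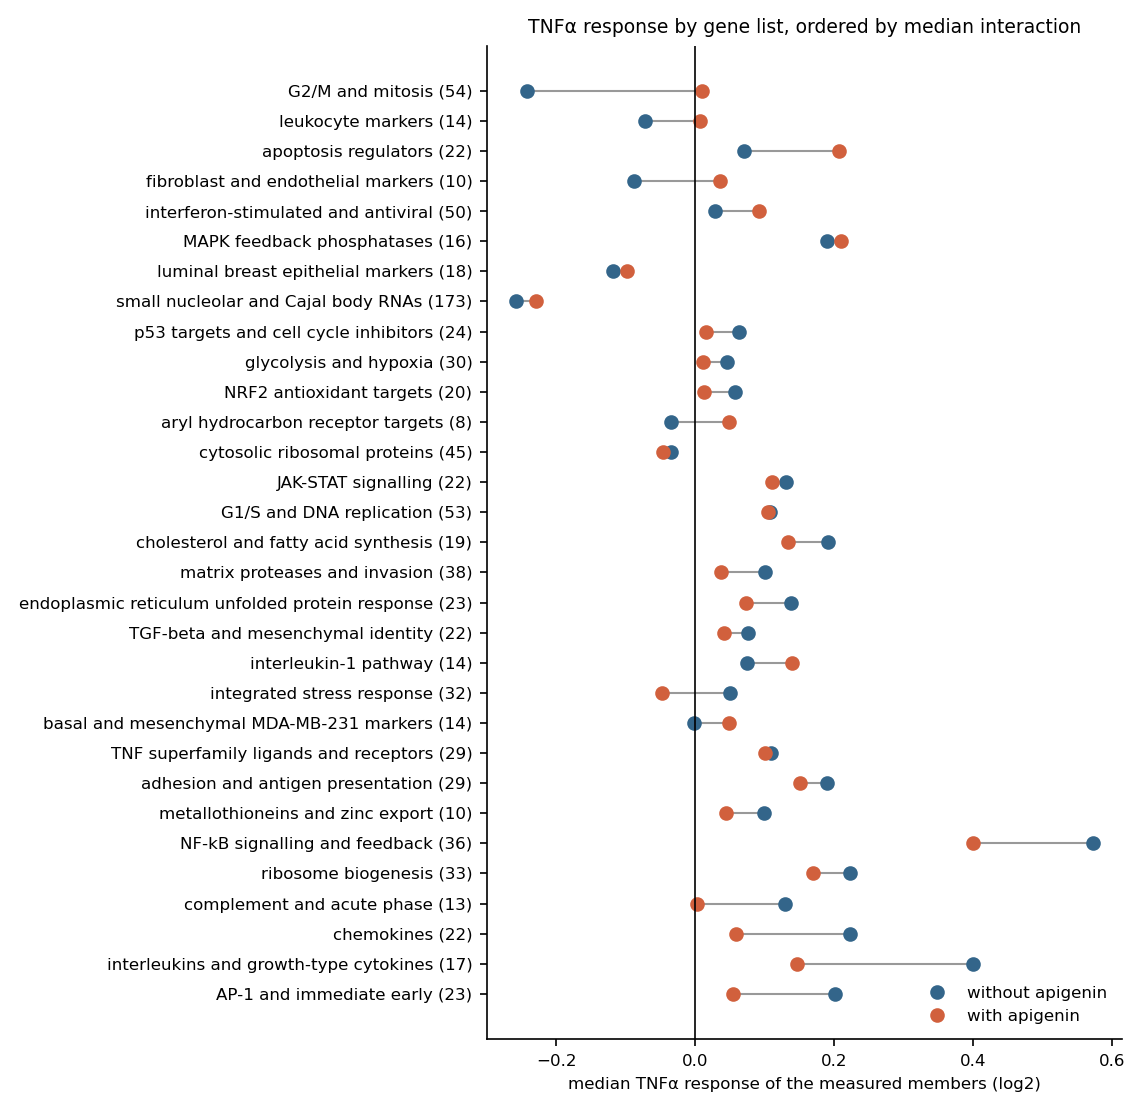
Median TNFɑ response in log2 units (horizontal axis) of the measured members of 31 gene lists, without apigenin (blue) and with it (orange); the number of members is in brackets, and lists are ordered by their median departure from the G2/M list down to the AP-1 list. The cytokine, chemokine, NF-κB and AP-1 lists have lower medians with apigenin than without, and the G2/M list moves from -0.24 to 0.01.

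For a view of all TNFɑ-responsive genes, genes were grouped by the TNFɑ effect averaged over cells without and with apigenin. In a balanced design with equal spread in all groups, the error of this average is independent of the error of the departure, unlike that of the response without apigenin alone. The median standard deviations were somewhat larger without apigenin (0.178 in control, 0.166 with TNFɑ) than with it (0.158 with apigenin, 0.146 with both). Unequal spread can tilt the departures of sets grouped in this way, and its part here was not tested. The averaged effect was called upward in 311 genes (1.51%) and downward in 46 (0.224%). Among the 311, 224 departures were below 0 and 87 above, beside 9964 below and 10608 above over all genes, the median was -0.20 beside 0.008 for all genes, and the median TNFɑ response was 0.65 without and 0.47 with apigenin. Among the 46 lowered genes 41 departures were above 0, the median was 0.39, and the median response was -0.69 without and -0.33 with apigenin. In both sets the median gene had a smaller TNFɑ response in the presence of apigenin.

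Genes on which both agents acted in the same direction also had, at the median, a smaller TNFɑ response under apigenin. Of 24 genes lowered in both averaged effects, 23 had a positive departure, and the median over the 24 was 0.49. VIPR1 was among these genes. IGFBP1, a binding protein of insulin-like growth factors, read 6.67, 6.48 and 6.49 in control, 5.70, 5.62 and 5.83 with TNFɑ, 4.26, 4.18 and 4.03 with apigenin, and 4.29, 3.98 and 4.36 with both. Apigenin and both agents overlapped, and the departure was 0.88 (95% interval 0.49 to 1.27; adjusted p = 0.2964). KCNN4, a calcium-activated potassium channel, was at 0.95 (0.47 to 1.44; adjusted p = 0.4719). Where both averaged effects were upward (53 genes), 35 departures were below 0 and the median was -0.16, and where TNFɑ raised and apigenin lowered genes (127), 101 were below 0 with a median of -0.24. Of these 127 genes, 67 were called lower with apigenin alone. A smaller TNFɑ response under apigenin also lowers the averaged apigenin effect, so membership of this set depends in part on the departure. Over the genes raised and lowered by the averaged apigenin effect the median departures were -0.02 and 0.05, close to that of all genes.

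The sizes of the TNFɑ sets varied with the arrays used, while the sign of their median departure did not in any of the 12 fits without 1 array, in which the design is no longer balanced. Without control array 1, 2 or 3 the upward set held 173, 190 and 532 genes, without TNFɑ array 1, 2 or 3 it held 157, 529 and 186, without apigenin array 1 or 2 it held 174 and 191, and without array 2 or 3 of both agents it held 187 and 167. The median departure of the set stayed between -0.29 and -0.12 in these fits. The downward set ranged from 18 genes (without TNFɑ array 1, or without apigenin array 1) to 86 (without TNFɑ array 2), with medians between 0.20 (without apigenin array 2) and 0.57. It also lay beyond 1.5 times its size without control array 1 (21), TNFɑ array 3 (27), apigenin array 3 (25), and array 1, 2 or 3 of both agents (24, 22 and 21). Without the 4 arrays numbered 3 the sets held 138 and 4 genes.

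Additivity depends on the scale on which it is defined. When the deposited values were raised back to the linear scale, where additive means that the amounts added by each agent sum, 27 genes were called, 10 higher and 17 lower, and 7 of the 11 genes above were among them. IL1A, C3, CXCL8, CXCL11, CLDN1, CNTNAP1 and VIPR1 were called on either scale with the same sign, whereas MMP9, IL24, SAMD9L and LOC100287834 were called on the log2 scale alone. Further genes were called on the linear scale alone: CTSS, MMP1, ADAMTS9, IKBKE, IER3 and TNFSF10, the ligand TRAIL, were called lower, and IGFBP1 higher.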

How the data were processed

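Total RNA was hybridised to Affymetrix whole-transcript arrays, 1 per sample. The authors deposited a single table of log2 values, 1 per probe set and array. Per the submitters' processing notes it came from Affymetrix Expression Console, whose version, summary algorithm and options are not stated in the sources used here. Array medians were close to each other, and 0 values were missing.

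Probe sets were named from the platform's annotation: 23871 had 1 symbol, 1842 several, and 27904 were unnamed here and not used. Gene identifiers gave the current symbol for 22569, of which 90 changed. A probe set was kept at or above the 25th percentile of its array (1.597 to 1.645) on at least 3 arrays, and a gene was read from its kept probe set with the highest mean. limma 3.58.1 in R 4.3.3 fitted 4 group means to 12 arrays (lmFit, contrasts.fit, eBayes); p-values were adjusted by Benjamini-Hochberg over 20572 genes and called under 0.05. Standard errors (SE) and 95% intervals come from that fit. The number of arrays limits the precision.

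The members and the 31 gene lists were chosen with earlier results of these data known, so lists are described by counts and medians with no test. Genes named are the called genes, up to 4 members of each list with the largest departure at an unadjusted p under 0.05, a panel of 48 genes (46 measured; BIRC3 and SOD2 are not analysed here), and the 4 largest departures in each direction among genes with a called averaged effect; provisional symbols are not described. GPRC5B, ASS1 and others near the threshold fall outside that rule. On simulated data of 20572 genes the interaction test recovered 47% of 100 genes with a departure of 1 and 94% of 100 with a departure of 2, with 7 false calls among 148 and 0 calls when no departure was put in. The simulation drew noise independently for each array, and its 148 calls made the adjusted threshold looser than the 11 calls of the data did. Promoter windows and motif counts come from RefSeq (GRCh38.p14). Alternatives covered normalisation, filter, probe sets, variance model, array weights, replicate block, small nucleolar RNA level, arrays left out and the linear scale.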

Additional observations from a re-analysis of the deposited data

Results flagged for a closer look

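In each of the following genes the TNFɑ response differed between cells with and without apigenin by limma's test of that difference at an adjusted p under 0.05; values are differences of log2 responses, with minus without apigenin. Among secreted signals, the difference was -3.57 for IL1A, -2.09 for CXCL8, -1.51 for CXCL11 and -1.47 for IL24. The complement component C3 differed by -2.29 and the protease MMP9 by -1.39. For the membrane proteins CLDN1 and CNTNAP1 the differences were -1.12 and -1.46, and for LOC100287834 -2.51. In the opposite direction, VIPR1 differed by 1.18 and SAMD9L by 1.37. No group had more than 3 arrays, so single arrays were not screened for outlying values.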

How the results depend on the processing

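No named gene's called departure changed sign under any alternative run, and IL1A and C3 were called under all of them. The count of 11 called genes (2 higher, 9 lower) was sensitive. It was 3 (0 higher, 3 lower) with a mean-variance trend and robust moderation, 5 (0 higher, 5 lower) with the small nucleolar RNA covariate, 2 (0 higher, 2 lower) without the 4 arrays numbered 3, and 27 (10 higher, 17 lower) on the linear scale. Without a filter on level, or with every kept probe set as its own feature, it was 8, with 1 higher. Without 1 array it ran from 2 to 6, with 0 to 1 higher and 2 to 6 lower. With quantile normalisation (CTSS and ICAM1 added) or array weights (CTSS and IL32 added) it was 13, and with the stricter filter 11; each of these held all 11 genes. Without apigenin array 3 LILRB1 was called higher. The upward and downward sets of the averaged TNFɑ effect (311 and 46 genes) held 613 and 94 with array weights and, once small nucleolar RNA level was a covariate, 186 and 22; the downward set held 171 with quantile normalisation and 77 with the trend. With that covariate the averaged apigenin effect was called in 1065 genes upward and 948 downward, against 1748 and 2400. The covariate itself differed between groups. Its array values were 5.33 to 5.69 in control and 4.75 to 5.96 with TNFɑ, but 5.77 to 6.34 with apigenin and 5.855 to 5.904 with both. It thus overlaps in part with the apigenin contrast, and this fit cannot separate them. The causes were not tested.

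Replicate numbers are shared across groups. Deviations from the group means correlated at 0.018 to 0.464 between same-numbered arrays (13 of 18 pairs over 0.1) and at -0.442 to 0.102 between others. The same-numbered pairs ran from 0.201 to 0.464 for numbers 2 and 3, and from 0.018 to 0.102 for number 1. Since not every pair exceeded 0.1, the main fit used no block. That rule is strict, and deviations shared by arrays of 1 number stay in the error of the main fit. With a replicate block 14 genes were called, 3 higher and 11 lower, with all 11 shared; SLC2A12, IL32 and CTSS were added, and 11 of 12 arrays correlated best with an array of their own number, a hint from the data and not the design. The averaged TNFɑ effect was called upward in 986 and downward in 165 genes with that block.

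Background correction, slide and scan batch could not be varied without scanner files, and the averaged effects were not run on the linear scale. With 3 arrays per group a departure of 1 was often missed in the simulation, which recovered 47% of them. The simulation gave 148 calls against 11 in the data, and more calls make the Benjamini-Hochberg threshold looser. The 47% may therefore overstate the recovery in these data. An uncalled gene is not shown to be additive.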
